A study of Arabidopsis thaliana with 9 samples.

Results

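The plant defensin (PDF) genes of Arabidopsis thaliana were taken as every probe set that is paired with exactly 1 gene whose current symbol is PDF followed by a class number from 1 to 3 and a member number. This gave 8 probe sets for 8 genes (PDF1.2, PDF1.2b, PDF1.2c, PDF1.3, PDF1.4, PDF1.5, PDF2.1 and PDF2.5) among 16722 tested probe sets and 38408 on the array, and these are all 8 genes with such a symbol in the RefSeq table. A further 5 genes carry a PDF name only as a synonym and are described with the related LCR genes. RNA came from whole plants, 21 days old, grown in boxes of half-strength MS nutrient agar. Control plants received the solvent acetone alone. One exposed group received 50 mg per L of 2,5-dichlorobiphenyl (2,5-DCB), a polychlorinated biphenyl. The other received 5 mg per L of 4'-OH-2,5-DCB, the metabolite with a hydroxyl group added, so the exposures differ in dose as well as in structure. Each group had 3 arrays. The labels name no genotype or transgene and tie no array to particular plants or boxes, and p-values therefore reflect spread among arrays alone, and that spread may be technical.

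Plant defensins are small, secreted, cysteine-rich peptides held together by disulfide bonds, and many of them slow the growth of fungi. PDF1.2 is the usual marker gene of the joint jasmonate and ethylene branch of plant defence, in which transcription factors of the ERF family switch it on and salicylic acid signalling holds it down. PDF1.2, PDF1.2b and PDF1.2c encode nearly the same peptide, and the probe sets of such close copies may not measure them separately. In the RefSeq table PDF1.2 and PDF1.2c are neighbours on chromosome 5, with 0 protein-coding genes between them, and PDF1.3 and PDF1.2b are neighbours on chromosome 2.

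Signals are given as log2 values per probe set and array, and the levels of different probe sets do not compare amounts of RNA between genes. The words near the floor, dim and bright describe only the place of a signal among those of the array. In bulk RNA, fewer cells of a type and less RNA per cell cannot be told apart. One array, 4'-OH-2,5-DCB replicate 1, stood apart from the rest. Its SD across probe sets was 1.68, against 2.13 to 2.2 on the other 8 arrays, its 25th percentile was 3.72, against 2.80 to 3.01, and its best Pearson r with any array was 0.927, while among the remaining 8 every r was at least 0.956 (taken over probe sets, which are no independent replicates). Where leaving it out changed a call, a sign or the size of a difference of a defensin gene by over 1.5 times, the value without it is given as well.

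PDF1.2 rose under both exposures, and PDF1.2b under 4'-OH-2,5-DCB. For PDF1.2 (AT5G44420), the control arrays read 5.82, 3.07 and 4.85, those of 2,5-DCB 8.81, 7.17 and 7.40, and those of 4'-OH-2,5-DCB 9.19, 8.16 and 7.22 (replicates 1, 2 and 3 in each group). Every exposed array lay above every control array, and the lowest exposed array exceeded the highest control by 1.34 on the log2 scale, while both exposed groups overlapped each other. The control arrays alone spanned 6.75-fold. PDF1.2b (AT2G26020) read 6.04, 3.45 and 5.22 in the control, 8.83, 6.85 and 7.55 under 2,5-DCB, and 9.63, 8.86 and 7.78 under 4'-OH-2,5-DCB. Here too no exposed array reached down to the controls, by a margin of 0.82, and the exposed groups overlapped.

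PDF1.2 rose from 4.58 ± 1.4 to 7.79 ± 0.89 under 2,5-DCB and to 8.19 ± 0.99 under 4'-OH-2,5-DCB (mean ± SD, n = 3 each). These are rises of 9.25-fold (95% interval 2.92 to 29.3) and 12.2-fold (3.86 to 38.7), with limma adjusted p of 0.0419 and 0.0353. PDF1.2b rose 14.4-fold under 4'-OH-2,5-DCB (4.63 to 45.0, adjusted p 0.0273). Under 2,5-DCB the PDF1.2b difference was 7.16-fold (2.30 to 22.3) and did not pass (adjusted p 0.0627). The calls of this pair were often lost with 1 array left out, not always with a smaller difference. The sizes also moved. Without control replicate 2, the lowest control, PDF1.2 was 5.47-fold and 7.23-fold higher under 2,5-DCB and its hydroxylated form, and PDF1.2b 4.33-fold and 8.73-fold. Without control replicate 1, the highest, PDF1.2 was 14.2-fold and 18.8-fold higher, and PDF1.2b 10.6-fold and 21.4-fold. PDF1.2 under 2,5-DCB kept the call in 3 of 9 cases with 1 array left out, and lost it on leaving out control replicate 2 (adjusted p 0.141) or 3 (0.109), any 2,5-DCB array (0.137, 0.106 and 0.115 for replicates 1, 2 and 3) or 4'-OH-2,5-DCB replicate 2 (0.0620). PDF1.2 under 4'-OH-2,5-DCB likewise kept it in 3 of 9, and lost it on leaving out control replicate 2 (0.122) or 3 (0.103), 2,5-DCB replicate 2 (0.0626) or 3 (0.0675), or replicate 1 (0.0511) or 2 (0.0849) of its own group. PDF1.2b under 4'-OH-2,5-DCB kept it in 5 of 9 and lost it without control replicate 2 or 3 (0.0935 and 0.0823), 2,5-DCB replicate 3 (0.0564) or 4'-OH-2,5-DCB replicate 2 (0.0725), whereas under 2,5-DCB it passed without 4'-OH-2,5-DCB replicate 1 (0.0345).

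**Figure D1:**
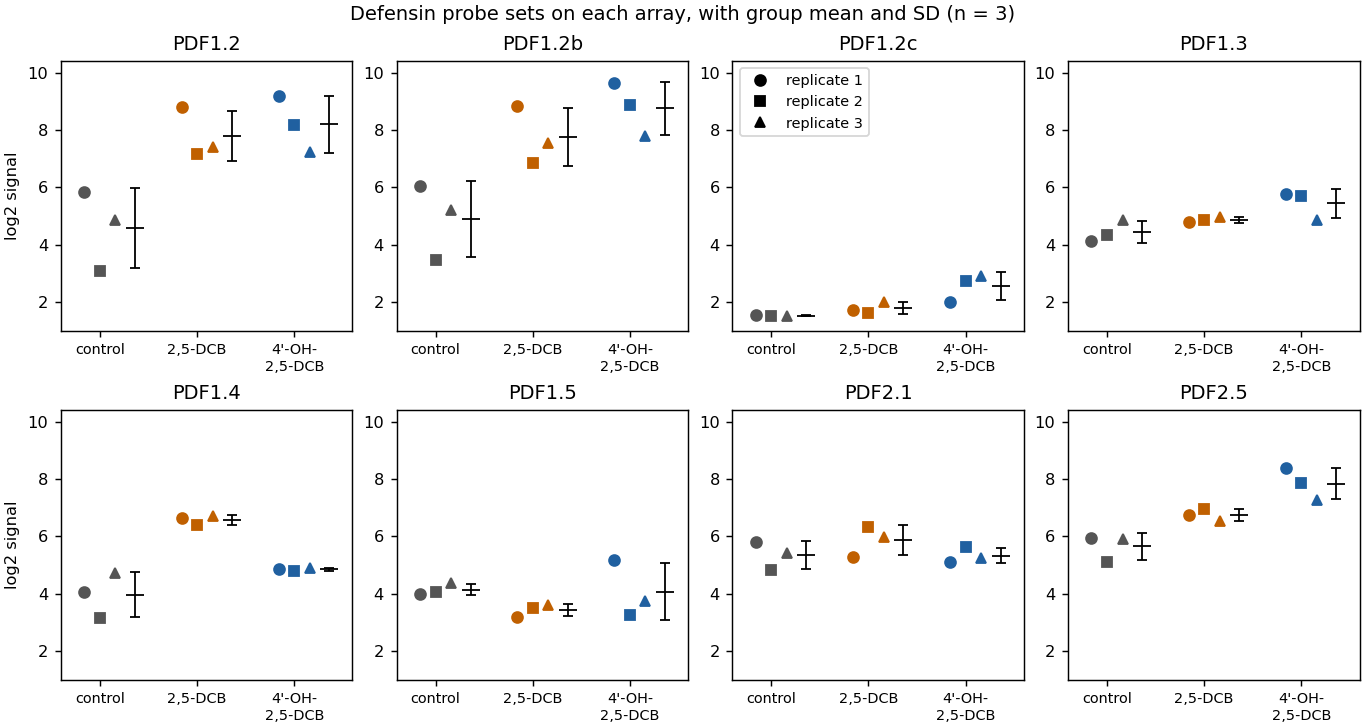
Log2 signal of the 8 defensin probe sets (1 panel each) on each array, by group. Symbols mark replicates 1 to 3 and bars show the group mean and SD (n = 3). All 6 exposed arrays of PDF1.2, PDF1.2b, PDF1.2c, PDF1.4 and PDF2.5 lie above the 3 control arrays, while PDF2.1 overlaps in all groups.

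PDF1.4 (AT1G19610), a class 1 defensin gene away from that pair, had its highest values under 2,5-DCB. Control arrays read 4.05, 3.15 and 4.71, those of 2,5-DCB 6.63, 6.39 and 6.69, and those of 4'-OH-2,5-DCB 4.88, 4.78 and 4.88. The groups did not overlap, in the order control, 4'-OH-2,5-DCB, 2,5-DCB, but the gap between the highest control and the lowest 4'-OH-2,5-DCB array was small. PDF1.4 rose 6.07-fold under 2,5-DCB, from 3.97 ± 0.78 to 6.57 ± 0.16 (interval 3.64 to 10.1, limma adjusted p 0.00386), and kept this call in 9 of 9 cases with 1 array left out (adjusted p 0.00254 to 0.0224). Under 4'-OH-2,5-DCB its mean was 4.84 ± 0.06, a difference of 0.88 (interval 0.14 to 1.61) that did not pass (adjusted p 0.215). The only tested gene of 13 in the seed marker list, PAP85, read 3.76 to 3.79 in the control, 5.02 to 6.06 under 2,5-DCB and 2.83 to 3.95 under 4'-OH-2,5-DCB, and rose 3.27-fold under 2,5-DCB (limma adjusted p 0.0199). PAP85 kept that call in 4 of 9 cases with 1 array left out and lost it without any 1 control array (0.0675, 0.0909 and 0.0689) or 2,5-DCB replicate 1 or 3 (0.0575 and 0.0722). Its part in the PDF1.4 result was not tested.

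PDF2.5 (AT5G63660), a class 2 defensin gene linked to cadmium tolerance, had its highest values under 4'-OH-2,5-DCB. Control arrays read 5.96, 5.09 and 5.89, those of 2,5-DCB 6.75, 6.95 and 6.55, and those of 4'-OH-2,5-DCB 8.37, 7.88 and 7.28. The groups did not overlap, in the order control, 2,5-DCB, 4'-OH-2,5-DCB. PDF2.5 rose 4.58-fold under 4'-OH-2,5-DCB, from 5.65 ± 0.48 to 7.84 ± 0.54 (interval 2.81 to 7.46, limma adjusted p 0.00947). This call held in 9 of 9 cases with 1 array left out (adjusted p 0.00924 to 0.0474), but was lost when the 2,5-DCB arrays were left out of the fit (adjusted p 0.0561). Under 2,5-DCB the difference was 2.14-fold (1.32 to 3.49), with an adjusted p of 0.0904, and 0.0271 without 4'-OH-2,5-DCB replicate 1.

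PDF1.2c and PDF1.3, the neighbours of PDF1.2 and PDF1.2b, did not pass in any comparison of the fit on all 9 arrays. PDF1.2c (AT5G44430) read 1.54, 1.52 and 1.5 in the control, 1.73, 1.61 and 2.01 under 2,5-DCB, and 1.99, 2.74 and 2.91 under 4'-OH-2,5-DCB. These values lie below the 25th percentile of their array on 8 of 9 arrays, so the probe set was near the floor of the scale, and the size of its differences is uncertain. Its difference under 4'-OH-2,5-DCB was 1.03 (SE 0.24, adjusted p 0.0550), and 1.31 without 4'-OH-2,5-DCB replicate 1 (adjusted p 0.00311). Under 2,5-DCB it was 0.26 (adjusted p 0.753), although the 3 arrays lay above the controls. PDF1.3 (AT2G26010) read 4.11, 4.33 and 4.85 in the control, 4.78, 4.85 and 4.97 under 2,5-DCB, and 5.75, 5.71 and 4.85 under 4'-OH-2,5-DCB, and the groups overlapped. The same value of PDF1.3 occurred on 3 arrays, 1 in each group; 45.3% of tested probe sets repeat a value across arrays. Its differences from control were 0.43 (adjusted p 0.546) and 1.00 (0.0943), and the second passed without 4'-OH-2,5-DCB replicate 3 (1.3, adjusted p 0.0299).

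PDF1.5 and PDF2.1 did not pass in either comparison with control. PDF1.5 (AT1G55010) read 4.0, 4.05 and 4.36 in the control, 3.19, 3.50 and 3.61 under 2,5-DCB, and 5.17, 3.26 and 3.76 under 4'-OH-2,5-DCB. The 2,5-DCB arrays all lay below the controls (difference -0.70, SE 0.41, adjusted p 0.494, and 0.0360 without 4'-OH-2,5-DCB replicate 1), whereas the 4'-OH-2,5-DCB arrays lay on both sides, with replicate 1 above every other array (difference -0.07, and -0.63 without it, adjusted p 0.929 and 0.102). PDF2.1 (AT2G02120) read 5.80, 4.84 and 5.42 in the control, 5.28, 6.32 and 5.99 under 2,5-DCB, and 5.11, 5.63 and 5.25 under 4'-OH-2,5-DCB, with all groups overlapping. Its differences were 0.51 (interval -0.20 to 1.22) and -0.03 (interval -0.74 to 0.69), the latter 0.08 without 4'-OH-2,5-DCB replicate 1.

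Counted over the family, 2 of 8 members were called under 2,5-DCB, both higher, where 4.65% of all tested probe sets were called, 1.82% higher and 2.82% lower. Under 4'-OH-2,5-DCB 3 of 8 were called, all higher, where 2.91% of all were called, 1% higher and 1.9% lower. These 3 include both PDF1.2 and PDF1.2b, whose probe sets may not measure them separately. The exposed arrays all lay above the controls for 5 of 8 members in each comparison, where 16.8% (2,5-DCB) and 11.2% (4'-OH-2,5-DCB) of all tested probe sets did so. They all lay below for 1 member under 2,5-DCB (PDF1.5), against 14.1%. The median difference of the members was 0.81 and 1.02, against 0.04 and 0.10 over all tested probe sets. PDF1.2 passed in both comparisons, which share the control arrays. Leaving out 1 array changed the counts over all tested probe sets, and the member counts did not always follow. Without control replicate 1 the members called stayed at 2 (2,5-DCB) and 3 (4'-OH-2,5-DCB), where 2.39% and 1.2% of all were called. Without 4'-OH-2,5-DCB replicate 3 they were 2 and 4, where 3.86% and 2.71% of all were called. Without 4'-OH-2,5-DCB replicate 1, 5 members were called under 2,5-DCB, 4 higher and PDF1.5 lower, where 12.9% of all were called. Under 4'-OH-2,5-DCB 3 were called without that array, where 7.16% of all were. These were PDF1.2b, PDF2.5 and PDF1.2c, the last near the floor of the scale, while PDF1.2 was lost (limma adjusted p 0.0511). The count was 1 in each comparison without control replicate 2 (1.08% and 0.556% of all), control replicate 3 (2.03% and 1%), 2,5-DCB replicate 3 (1.55% and 1.52%) or 4'-OH-2,5-DCB replicate 2 (3.95% and 1.47%). It was 1 under 2,5-DCB also without replicate 1 (2.58% of all) or 2 (1.22%) of that group, and 2 under 4'-OH-2,5-DCB without 2,5-DCB replicate 2 (1.55%).

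**Figure D2:**
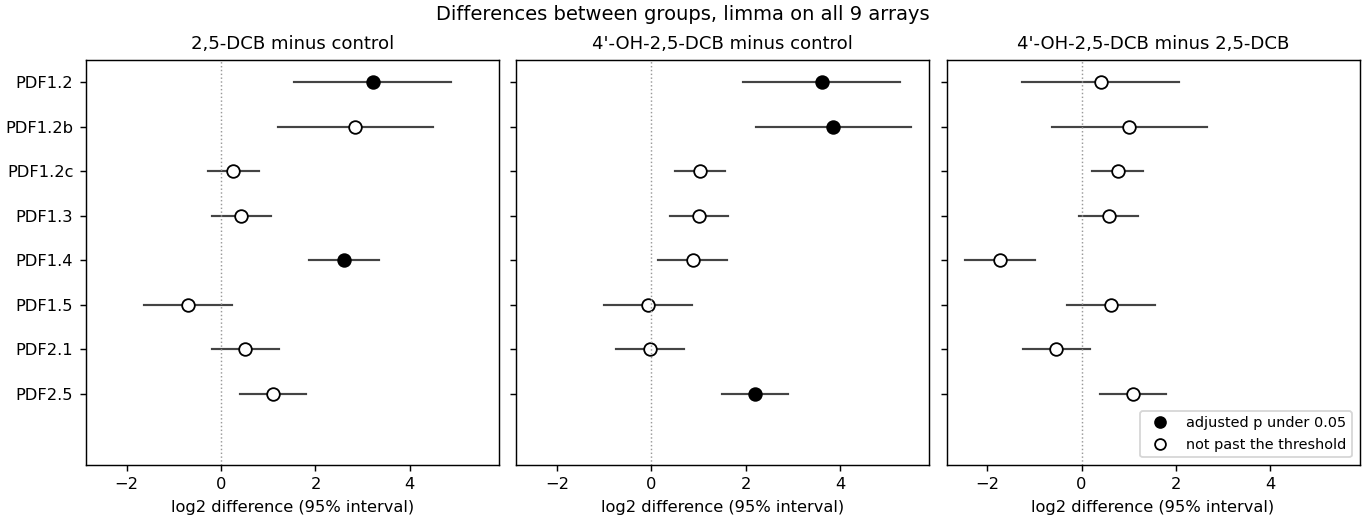
Log2 difference between groups for each defensin probe set (points) with its 95% interval (lines), from limma on all 9 arrays. Filled points passed an adjusted p of 0.05: PDF1.2 and PDF1.4 under 2,5-DCB, PDF1.2, PDF1.2b and PDF2.5 under 4'-OH-2,5-DCB, and none between the exposures.

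Between the exposures, PDF1.4 and PDF2.5 stood on opposite sides, at different doses of the compounds. PDF1.4 had a mean of 6.57 ± 0.16 with 2,5-DCB and of 4.84 ± 0.06 with the hydroxylated compound, with every 4'-OH-2,5-DCB array below every 2,5-DCB array (8.35% of all tested probe sets). PDF2.5 was at 6.75 ± 0.20 and 7.84 ± 0.54, with every 4'-OH-2,5-DCB array above (6.89% of all). The differences, 4'-OH-2,5-DCB minus 2,5-DCB, were -1.73 for PDF1.4 (interval -2.46 to -0.99) and 1.09 for PDF2.5 (0.39 to 1.80), and neither passed (adjusted p 0.139 and 0.282). The difference was 1.01 for PDF1.2b (-0.63 to 2.65) and 0.40 for PDF1.2 (-1.26 to 2.07). Leaving out replicate 1 of 4'-OH-2,5-DCB gave 0.58 and -0.10, and took PDF1.5 from 0.63 to 0.07. PDF1.2c differed by 0.77 (0.23 to 1.3, adjusted p 0.335), and by 1.04 without that array (adjusted p 0.0348). In limma 0 of 16722 tested probe sets (0%) passed in this comparison, while 1656 had an unadjusted p under 0.05.

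Within the groups, PDF1.2 and PDF1.2b moved together from array to array. Control replicate 1 lay above its group mean by 1.24 for PDF1.2 and 1.13 for PDF1.2b, and control replicate 2 was off by -1.51 and -1.45. Replicate 1 was off by 1.02 and 1.08 in the 2,5-DCB group, and by 1.00 and 0.87 in the 4'-OH-2,5-DCB group. Replicate 3 of 4'-OH-2,5-DCB was off by -0.97 and -0.98. For both genes, replicate 1 was thus the highest array of each group. The deviations from the group means had a Pearson r of 0.988 over the 9 arrays, a description of values that share their arrays. For PDF1.2 with PDF2.5 it was 0.794, with PDF1.4 0.538, and with the neighbouring copy PDF1.2c -0.458. The PDF1.2c probe set was near the floor of the scale, and its largest deviation, -0.55, was on 4'-OH-2,5-DCB replicate 1. Its r is therefore uncertain. Control replicate 2 was the lowest control for 5 of 8 members, and 4'-OH-2,5-DCB replicate 1 the highest of all 9 arrays for 5 of 8. The same shares over all tested probe sets are not given here, so these counts are not read as a trait of the defensin genes.

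**Figure D3:**
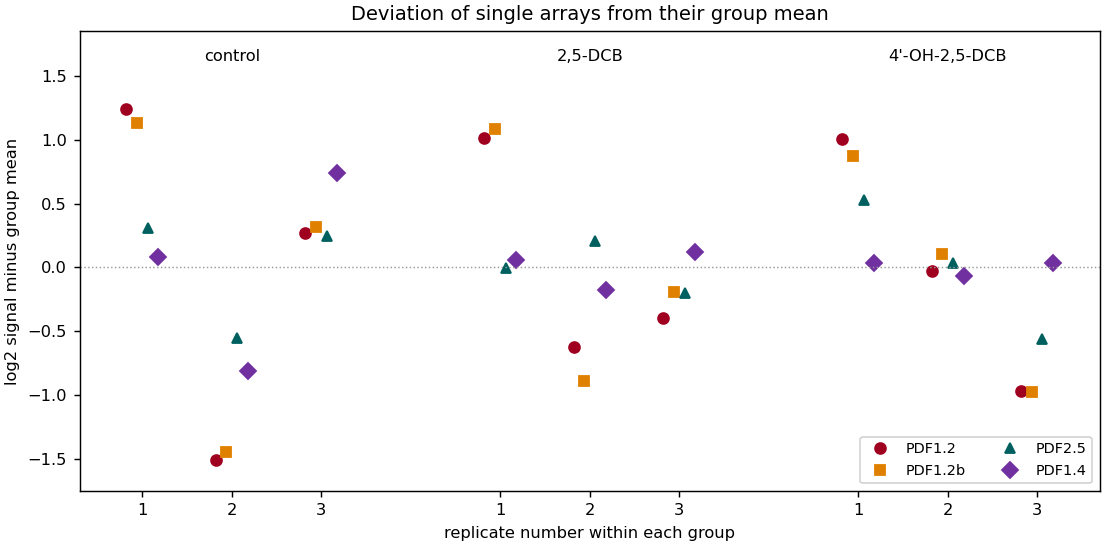
Log2 signal minus the group mean for PDF1.2, PDF1.2b, PDF2.5 and PDF1.4 on each of the 9 arrays, by group and replicate number. PDF1.2 and PDF1.2b lie close together on every array, from -1.51 and -1.45 on control replicate 2 to 1.24 and 1.13 on control replicate 1.

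Outside the family, the probe sets most like each called member were those with the highest Pearson r over the 9 arrays, a measure that includes the differences between the 3 groups. For PDF1.2 they were AT4G16260 (r 0.944), AT2G40113, AT3G29034, AT5G28919 and AT5G13070 (0.936). AT4G16260 rose by 1.84 under 2,5-DCB (limma adjusted p 0.0314), a call kept in 4 of 9 cases with 1 array left out and lost without control replicate 2 or 3 (0.112 and 0.106) or any 2,5-DCB array (0.0905, 0.0769 and 0.127). Its difference under 4'-OH-2,5-DCB was 1.72 (adjusted p 0.0518). For PDF1.2b they were AT5G17910 (0.963), AT2G04800, AT5G13070, AT5G48110 and the lectin gene JAL23 (0.937). For PDF1.4 they were AT4G38790 (0.989), AT1G56145, AT3G01800, AT1G68620 and AT2G16710 (0.964), of which AT1G68620 had the largest rise under 2,5-DCB, 2.09 (adjusted p 0.00936, called in 9 of 9 cases with 1 array left out). For PDF2.5 they were AT1G44180 (0.982), AT2G48130, AT5G60150, AT1G23980 and AT4G22610 (0.970), of which AT2G48130 rose most under 4'-OH-2,5-DCB, by 1.84 (adjusted p 0.0142, and 0.0783 and 0.0539 without control replicate 2 or 3).

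Few genes of the hormone pathways around PDF1.2 were tested, and 0 of those tested passed as higher. Of 18 ethylene and jasmonate regulators in the list 3 were tested, the ethylene master regulator EIN3 and the jasmonate transcription factors MYC3 and MYC4, and 0 were called. Their differences were -0.11, 0.22 and -0.15 under 2,5-DCB and -0.24, -0.08 and 0.37 under 4'-OH-2,5-DCB. The 1 tested gene of 14 in jasmonate synthesis and turnover, JMT, which makes methyl jasmonate, had 0.23 and 0.04. Of 11 other jasmonate or ethylene response genes 2 were tested, both thionin genes, which encode another class of small antimicrobial peptides. THI2.2 fell under 2,5-DCB, from 6.74 ± 0.42 to 5.15 ± 0.49 (3.01-fold, limma adjusted p 0.0314), and was at 5.53 ± 0.50 under 4'-OH-2,5-DCB (adjusted p 0.0981). The THI2.2 call was kept in 5 of 9 cases with 1 array left out and lost without control replicate 1 or 2 (0.110 and 0.131) or 2,5-DCB replicate 2 or 3 (0.110 and 0.119). THI2.1 differed by 0.12 and 0.05. Of 22 salicylic acid defence genes 2 were tested and 0 called: GRX480, a glutaredoxin gene whose overexpression represses PDF1.2, had 0.20 and 0.04, and SAG101, a partner of EDS1 in immunity, 0.22 and 0.02. The lists of 12 JAZ repressors and 7 camalexin genes had 0 tested members and are not analysed here.

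The LCR genes encode further defensin-like, low-molecular-weight cysteine-rich peptides, and 63 of 81 were tested. Under each exposure 0 rose, where 1.82% (2,5-DCB) and 1% (4'-OH-2,5-DCB) of all tested probe sets rose. In each, 1 fell, LCR54 (AT3G61182), where 2.82% and 1.9% of all fell. Counts of 0 and 1 in 63 are close to these shares and are not read as a trait of the LCR genes. LCR54 read 5.29, 6.25 and 6.10 in the control, 3.13, 2.98 and 3.92 under 2,5-DCB, and 3.55, 2.95 and 3.71 under 4'-OH-2,5-DCB, with all exposed arrays below the controls. LCR54 fell 5.81-fold (adjusted p 0.00484) and 5.56-fold (adjusted p 0.00769), and both calls held in 9 of 9 cases with 1 array left out. The median difference of the 63 was 0.06 under 2,5-DCB, and -0.04 after quantile normalization and -0.05 after median centring. Under 4'-OH-2,5-DCB it was 0.37, with 53 of 63 above 0, but 0.05 with 36 of 63 above 0 without replicate 1 of that group, 0.09 after quantile normalization and 0.19 after median centring. Most LCR probe sets were dim, and 7 of 63 had a mean at or above the 25th percentile of all tested means. The 5 genes with a PDF name as a synonym are LCR67 (PDF1.1), LCR69 (PDF2.2), LCR68 (PDF2.3), LCR66 (PDF2.4) and LCR72 (PDF2.6), and 0 of them passed in any comparison of the fit on all 9 arrays. LCR69, LCR68 and LCR72 lie in a cluster with PDF2.1 on chromosome 2. LCR69 was bright, at 8.85 ± 0.22, 8.95 ± 0.07 and 8.45 ± 0.79 in the control, 2,5-DCB and 4'-OH-2,5-DCB groups. The last group read 7.54, 8.95 and 8.86, and its difference from control, -0.39, was 0.06 without replicate 1. LCR68, whose peptide blocks potassium channels, was at 5.77 ± 0.12, 5.79 ± 0.12 and 6.29 ± 0.32, with the 3 arrays of 4'-OH-2,5-DCB above the controls (difference 0.53, adjusted p 0.196, and 0.71 with 0.0157 without 4'-OH-2,5-DCB replicate 1).

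**Figure D4:**
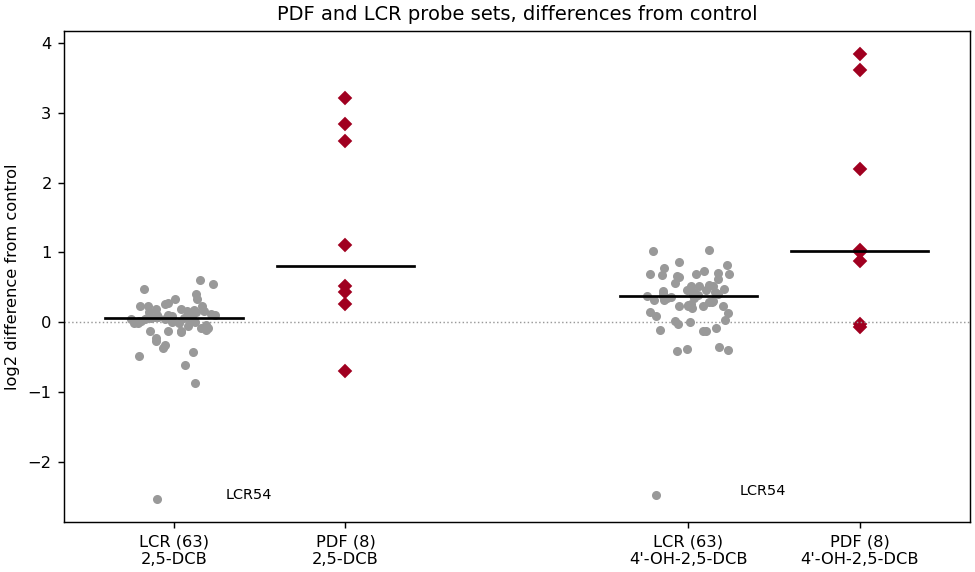
Log2 difference from control under each exposure for 63 LCR probe sets (grey) and 8 PDF probe sets (red), with horizontal lines at the medians, 0.06 and 0.81 under 2,5-DCB and 0.37 and 1.02 under 4'-OH-2,5-DCB. LCR54 lies at -2.54 and -2.48, and the LCR median under 4'-OH-2,5-DCB is 0.05 without replicate 1 of that group.

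Tissue markers were few among the tested probe sets. Of 12 root markers 2 were tested, and their summed signal was 10.3 to 10.8 in the control, 11.2 to 11.7 under 2,5-DCB and 11.3 to 12.1 under 4'-OH-2,5-DCB on the log2 scale. Nearly all of that sum was PYK10, and EXPA7 alone read 2.99 to 3.25, 3.42 to 3.70 and 3.15 to 4.23. PYK10, a beta-glucosidase of root ER bodies, rose by 1.11 under 4'-OH-2,5-DCB (limma adjusted p 0.0438) and differed by 0.88 under 2,5-DCB (adjusted p 0.0770, and 0.0205 without 4'-OH-2,5-DCB replicate 1). The call of PYK10 under 4'-OH-2,5-DCB was kept in 1 of 9 cases with 1 array left out, that without 4'-OH-2,5-DCB replicate 1 (adjusted p up to 0.190 in the others). The root hair expansin EXPA7 differed by 0.55 and 0.43 (adjusted p 0.303 and 0.489). The 1 tested leaf marker of 8, the Rubisco activase gene RCA, was at 11.5 to 11.6 in the control, 10.9 to 11.3 under 2,5-DCB and 11.1 to 11.6 under 4'-OH-2,5-DCB. Every 2,5-DCB array lay below every control (difference -0.39, adjusted p 0.347, and 0.0679 without 4'-OH-2,5-DCB replicate 1), and the 4'-OH-2,5-DCB difference was -0.18 (adjusted p 0.590). The list of 9 flower markers had 0 tested members. Whether the share of roots or other organs has a part in the defensin differences was not tested.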

How the data were processed

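RNA from whole plants in 3 groups of 3 arrays was labelled with the GeneChip WT PLUS kit, per the labels. The deposited values are log2 signals; the submitters' processing notes name Affymetrix Expression Console, without version, summarization or background method. The table held 38408 probe sets, 0 missing values and 0 further sample columns. Per the platform annotation, 16722 probe sets have 1 gene and 759 several, and the rest are unnamed here; 16574 were matched to RefSeq (TAIR10.1) for current symbols. No coordinates are printed, since no source names the probe sets' build.

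All 9 arrays were fitted in limma 3.58.1 (R 4.3.3; lmFit, eBayes) with 1 term per group, and p-values were adjusted over 16722 probe sets (Benjamini-Hochberg, two-sided, threshold 0.05). The number of arrays limits the precision. The members, gene lists and tests were chosen with earlier results of these data known. Named genes are all members, called list genes (otherwise the 2 smallest p), and the 5 probe sets of highest r with each called member. The fit was tested on simulated data. Groups share replicate numbers in the titles. Over all tested probe sets, same-numbered arrays had correlations of deviations from -0.247 to 0.0742, so the numbers were not taken as pairs. That check does not speak for single genes: for PDF1.2 and PDF1.2b replicate 1 was the highest array of each group. A fit with a replicate block is therefore given below. Alternatives covered normalization, filters, probe sets, arrays, moderation, weights, block and fold minimum.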

Additional observations from a re-analysis of the deposited data

How the results depend on the processing

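With 1 array left out, the probe sets called ranged from 181 to 2161 under 2,5-DCB (main 777), from 93 to 1197 under 4'-OH-2,5-DCB (486) and from 0 to 63 between the exposures (0). The defensin calls ranged from 1 to 5, 1 to 4 and 0 to 1 (main 2, 3 and 0). Other settings moved these counts as follows. Under 2,5-DCB all 38408 probe sets gave 1317, only the groups compared 1725 and array weights 2450. Among the 16722 tested probe sets, the setting with all probe sets called 211 higher and 345 lower. The defensin calls were 1, higher, with all probe sets or after quantile normalization (326 higher and 708 lower of 16722). They were 4, all higher, without probe sets under the 50th percentile (416 higher and 508 lower of 8361). With only the groups compared they were 3 higher and 1 lower (772 and 953 of 16722). With array weights they were 4 higher and 1 lower (1151 and 1299 of 16722). Under 4'-OH-2,5-DCB the counts were 856 (quantile normalization), 1204 (over all 38408 probe sets), 98 (only the groups compared) and 1827 (array weights). With only the groups compared, 0 defensin genes were called. Between the exposures the counts were 17 (quantile normalization), 2 (median centring), 21 and 17 (without probe sets under the 25th or 50th percentile), 9 (trend and robust options) and 349 (array weights), and array weights called 2 defensin genes, PDF1.2c and PDF1.4. The split of calls under 4'-OH-2,5-DCB was 168 higher and 318 lower, against 214 and 642 after quantile normalization and 104 and 601 after median centring. It was 644 and 560 over all 38408 probe sets, of which 135 and 276 were among the 16722 tested. With only the groups compared it was 17 and 81, and with array weights 923 and 904. Under 2,5-DCB it was 305 and 472, against 224 and 613 after median centring. Median centring moved the median of all tested probe sets from 0.04 to -0.07 and from 0.10 to -0.09.

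The replicate block gave 397 and 238 calls in the comparisons with control and 0 between the exposures, and 3, 3 and 0 defensin calls. It added PDF1.2b under 2,5-DCB (adjusted p 0.0290) and changed no other defensin call. PDF1.2 under 2,5-DCB was lost after quantile normalization and with all probe sets (adjusted p 0.0515 and 0.0628). The sign turned for 3 differences that were not called: PDF2.1 under 4'-OH-2,5-DCB was 0.0891 with array weights and ranged from -0.28 to 0.20 with 1 array left out, PDF1.5 under 4'-OH-2,5-DCB from -0.63 to 0.33, and PDF1.2 between the exposures from -0.10 to 0.91. Counting also the 5 genes with a PDF synonym, chosen after seeing the data, left the defensin calls at 2, 3 and 0. The filters at the 25th and 50th percentile left 7 and 6 of 8 members. The causes of these changes were not tested.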
